A study of Mus musculus with 8 samples.

Results

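The 10 genes described here mark the cells that wrap blood vessels. They were taken as a list of known markers, matched to the deposited table by mouse Ensembl identifier, and all 10 were found among its 23008 mouse genes. Of these, 6 are markers of pericytes (Rgs5, Cspg4, Pdgfrb, Kcnj8, Abcc9 and Notch3) and 4 belong to the contractile apparatus of smooth muscle (Acta2, Myh11, Tagln and Cnn1). RNA came from gastrocnemius, a calf muscle, of wild-type C57BL/6J mice. Every mouse had received AAV9 carrying a construct named GNDM in the labels, through the tail vein at an age of 7 weeks (the design text gives a range of 7 to 12 weeks), and muscle was taken 11 weeks later. In 4 libraries the construct carried guide m31, directed at Lama1, and in the other 4 a non-targeting control guide, so both groups carried virus and construct, and untreated muscle was not analysed here. The labels state neither the dose used nor that each library came from its own animal; p-values measure the spread between these libraries, which may in part be technical.

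Pericytes sit on capillaries within the basement membrane that they share with the endothelium, and vascular smooth muscle cells form the wall of arterioles, arteries and larger veins. Endothelial cells recruit pericytes by releasing platelet-derived growth factor B, which the receptor encoded by Pdgfrb detects, and Notch ligands on endothelium engage Notch3 on the mural cell. Smooth muscle genes such as Acta2, Myh11, Tagln and Cnn1 are switched on by serum response factor, which binds a short DNA element called the CArG box, and by its coactivator myocardin, which acts through that factor. In whole muscle, which consists mostly of fibres, these transcripts come from a minority of cells, and fewer cells of a type cannot be told apart from less RNA per cell.

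Depth, as the total of reads assigned to mouse genes, ran from 34142447 to 37792459 for m31 and from 25157486 to 39210248 for the control guide, with control replicates 3 and 4 the shallowest at 26188069 and 25157486. M31 replicate 4 and, among the controls, control replicate 3 stood apart in genes of fibroblasts and myofibroblasts, with values given beside those lists. The targeted gene Lama1 averaged 216 ± 93.6 normalised reads under m31 against 1.61 ± 2.02 under the control guide (SD, n = 4 each). A normalised read is a read count divided by a scaling factor of its library. The construct entry GNDM had 6157 to 24487 normalised reads under m31, lowest in replicate 4. Under the control guide it had 9802 to 37989, highest in replicate 3. Whether this level had a part in the differences described below was not tested. Of genes that mark the labelled tissue, the fibre actin Acta1 stood at 702801 to 1078560 normalised reads over the 8 libraries, and the endothelial adhesion gene Pecam1 at 2039 to 2270.2.

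The 10 genes covered a wide span of levels. Per kilobase of annotated exon, averaged over the 8 libraries, Rgs5 was the most abundant at 2024 normalised reads per kb. Its lowest library, at 1714, lay above the highest library of Acta2, at 1240.1. Acta2 and Abcc9 followed with means of 926 and 825, and their libraries overlapped (561 to 1240.1 and 762 to 879). Below a gap came 4 genes whose libraries overlapped between neighbours: Pdgfrb at 289 (224 to 361), Myh11 at 277 (221 to 358), Kcnj8 at 239.6 (179 to 286) and Notch3 at 192 (152 to 240.3). Cspg4 at 48.9 (31.05 to 62.1) and Cnn1 at 23.9 (11.7 to 45.6) lay below a further gap and overlapped each other. Tagln stood apart at 4.45 normalised reads per kb (2.87 to 6.32), below every library of every other member. Smooth muscle members took both the second place and the last.

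**Figure D1:**
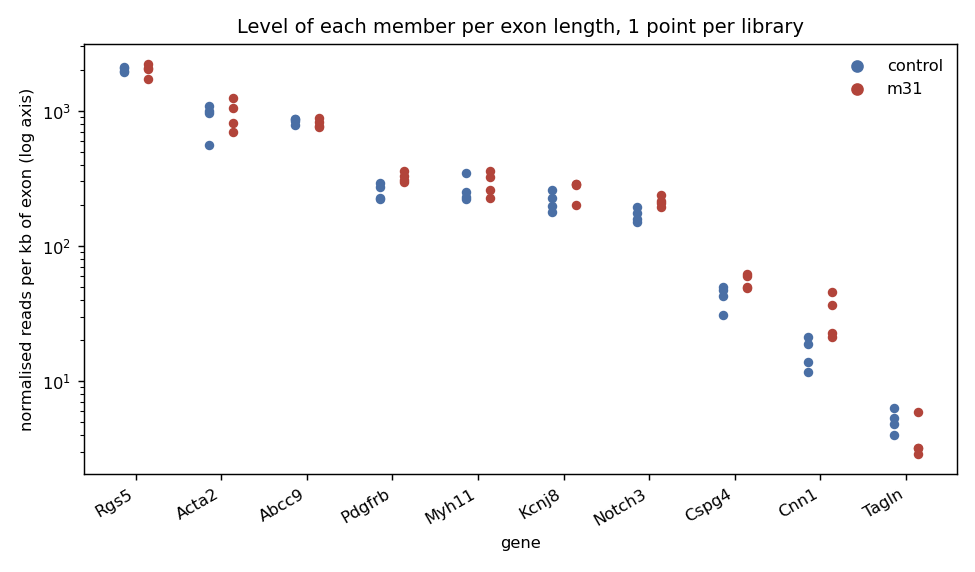
Normalised reads per kilobase of exon (log axis) for the 10 genes, ordered by their mean, with 1 point per library (blue, control guide; red, m31 guide). Rgs5 lies highest at a mean of 2024 and Tagln lowest at 4.45 per kb.

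The comparison of guides asked whether mural cell genes differed between muscle with Lama1 activation and muscle under the control guide. Genes with a mean of at least 10 normalised reads were tested as log2(value + 1) with limma, which 9 of the 10 members met; Tagln did not. None of the 9 passed at an adjusted p of 0.05, where 1 of 15960 genes did (0.00627%). At an unadjusted p under 0.05 there were 4 of the 9, Pdgfrb, Notch3, Cnn1 and Cspg4, all with higher values under m31, beside 6.79% of all genes tested (3.76% higher, 3.03% lower). No member passed in edgeR's quasi-likelihood test or in DESeq2 on recovered read counts, each with 4 members at an unadjusted p under 0.05. In all, edgeR called 1 of 16193 genes (0.00618%) and DESeq2 31 of 23007 (0.135%). In DESeq2 4047 of these genes had no adjusted p and could not be called. The groups did not overlap for 1 of the 9, Pdgfrb, which lay above, beside 3.85% of all genes tested (1.84% above and 2.02% below).

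As a group, 4 of the 6 pericyte members had estimates above 0 and 2 below, with a median log2 difference of 0.31 (m31 minus control). Among the smooth muscle members all 3 that were tested had estimates above 0, with a median of 0.16. Tagln, which was not tested, was lower under m31 by 0.42 on few reads. With no minimum on the mean, the median of all 4 was 0.12. Over all genes tested the median was 0.01, with 51.3% of estimates above 0 and 48.7% below. The members were listed with earlier results of these data known, so these counts and medians are a description. The pericyte median moved with the shallow libraries: with control replicates 3 and 4 both left out, a setting chosen after seeing the data, it was 0.14 while the smooth muscle median was 0.34, so that the order of the 2 classes was reversed. With a weight fitted for each library the smooth muscle median was 0.36 and the pericyte median 0.23.

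**Figure D2:**
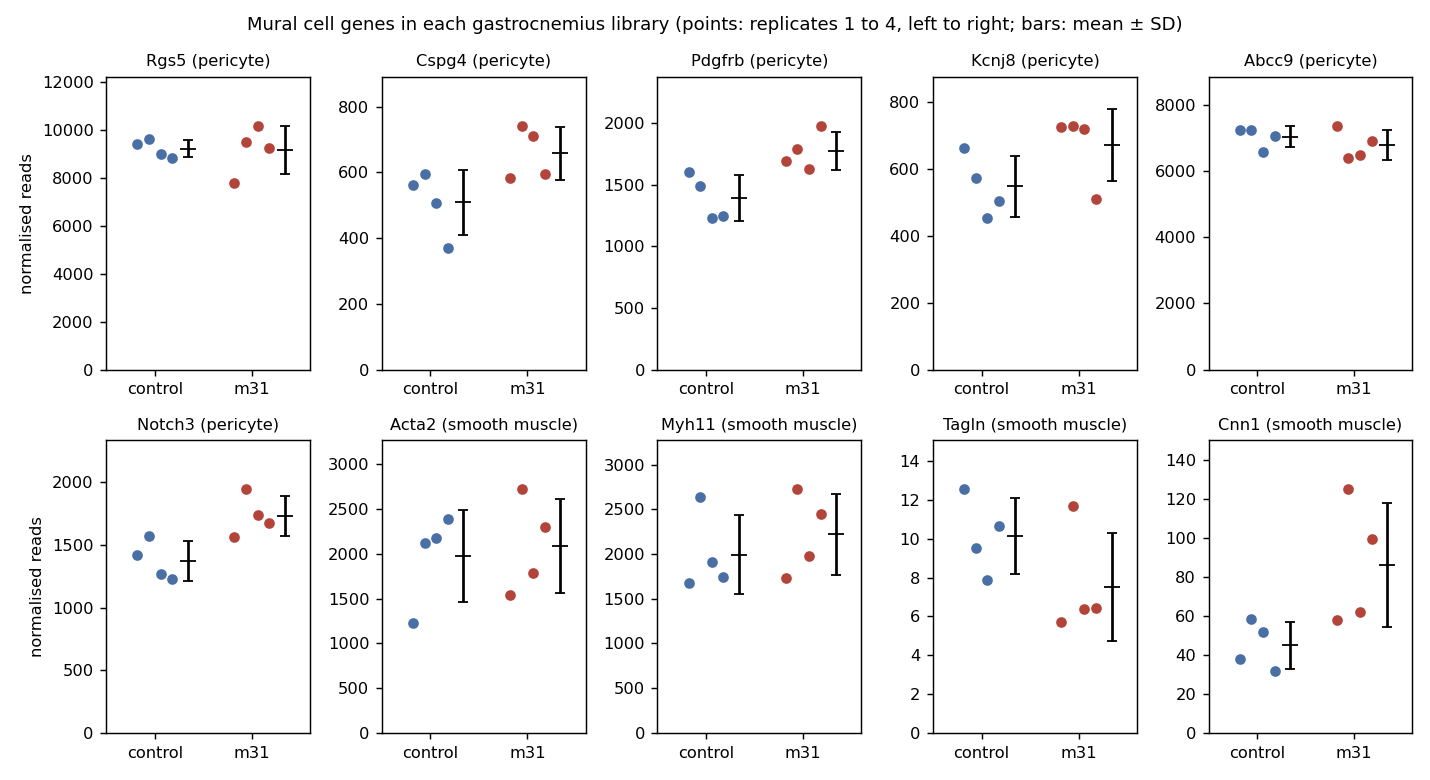
Normalised reads of each member in each library, on axes that start at 0 (points, replicates 1 to 4 from left to right; bars, mean ± SD, n = 4). For Pdgfrb all 4 m31 libraries, from 1628 to 1978, lie above the control libraries, from 1228 to 1607; for the other genes the groups overlap.

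Pdgfrb encodes the receptor through which platelet-derived growth factor B holds pericytes at the vessel (ENSMUSG00000024620, chromosome 18, 61045150 to 61085061, plus strand; this and the positions that follow are whole gene spans on GRCm38 in GENCODE M21, and each gene is protein coding). It had 1694, 1791, 1628 and 1978 normalised reads in m31 replicates 1 to 4 and 1607, 1488, 1228 and 1243 in control replicates 1 to 4. Every m31 library was above every control library, although m31 replicate 3 and control replicate 1 lay close together. The means were 1773 ± 152 and 1392 ± 187 (SD, n = 4 each), a log2 difference of 0.35 ± 0.11 (SE, 95% interval 0.12 to 0.59; limma adjusted p = 0.647 over all genes, unadjusted p = 0.00699). The difference was 0.19 without control replicates 3 and 4. Fibroblasts also carry this receptor, and m31 replicate 4, where Pdgfrb was highest, was the library with the highest Pdgfra, the fibroblast receptor, at 1410.2. Control replicate 3, in contrast, had the highest Pdgfra of the controls, at 1168, and the lowest Pdgfrb of all libraries. The part of fibroblasts in the Pdgfrb difference was not tested, and without m31 replicate 4 the difference was 0.30.

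Notch3 (ENSMUSG00000038146, chromosome 17, 32120820 to 32166852, minus strand), the Notch receptor of mural cells, stood at 1561, 1943, 1741 and 1671 normalised reads in the m31 libraries and at 1420.3, 1574, 1270.0 and 1226 in the control libraries. Control replicate 2 exceeded m31 replicate 1 by a small margin, which was the only crossing of the groups. The means were 1729 ± 161 and 1373 ± 158, a log2 difference of 0.34 ± 0.10 (SE, 95% interval 0.11 to 0.56; limma adjusted p = 0.647, unadjusted p = 0.00738). Its value without control replicates 3 and 4 was 0.21. In the annotation 6.03% of the exon bases of Notch3 are shared with exons of Gm17276 on the opposite strand, a gene with 3.21 to 13.7 normalised reads. Whether the counting step set reads of that stretch aside was not tested.

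Cspg4 encodes the NG2 proteoglycan of the pericyte surface (ENSMUSG00000032911, chromosome 9, 56865033 to 56899870, plus strand). Its values were 583, 741, 712 and 595 under m31 and 562, 594, 506 and 370.4 under the control guide. Control replicate 4 was the low point of the gene, m31 replicates 2 and 3 were the high points, and m31 replicate 1 lay below control replicate 2. With means of 658 ± 80.3 and 508 ± 98.9, the log2 difference was 0.39 ± 0.15 (SE, 95% interval 0.05 to 0.72; limma adjusted p = 0.715, unadjusted p = 0.0265). Control replicate 4 weighed heavily: the difference was 0.24 without it, and 0.18 without control replicates 3 and 4.

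Rgs5 (ENSMUSG00000026678, chromosome 1, 169655501 to 169695813, plus strand), which encodes a brake on G protein signalling and is among the most used pericyte markers, showed no such shift. It had 7789.9, 9511, 10179 and 9249 normalised reads under m31 and 9413, 9612, 9021 and 8845 under the control guide. The m31 libraries held both the highest and the lowest value. Means of 9182 ± 1008 and 9223 ± 352 gave a log2 difference of -0.012 ± 0.091 (SE, 95% interval -0.21 to 0.19; limma adjusted p = 0.984). The interval leaves room for a difference up to 0.21 in size on this scale. Its sign changed under 3 of the other settings, with values from -0.064 to 0.064 over all of them.

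Kcnj8 and Abcc9 encode the pore (Kir6.1) and the regulatory sulphonylurea receptor (SUR2) of the ATP-sensitive potassium channel of mural cells. Kcnj8 (ENSMUSG00000030247) and Abcc9 (ENSMUSG00000030249) are neighbours on chromosome 6, both on the minus strand, from 142564837 to 142571614 and from 142587862 to 142702315, with 16.2 kb between them. SUR2 is also the partner of the fibre pore Kir6.2, encoded by Kcnj11, so Abcc9 is not confined to vessels in this tissue. Kcnj8 had 727, 729.6, 720.0 and 512 normalised reads under m31 and 664, 572, 455 and 504 under the control guide. M31 replicates 1 to 3 were nearly equal and above all controls, while m31 replicate 4 fell among the controls. The means were 672 ± 107 and 549 ± 90.5 (log2 difference 0.29 ± 0.15 (SE), limma adjusted p = 0.765). Without m31 replicate 4 the difference was 0.42, and without control replicates 3 and 4 it was 0.11.

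Abcc9 had the narrowest range of the 10 genes over the 8 libraries, its highest value being 1.15 times its lowest, and 1.89% of its exon bases are shared with 5330439B14Rik on the opposite strand. Its values were 7356, 6384, 6491 and 6893 under m31 and 7245, 7242, 6575 and 7057 under the control guide, and the log2 difference was -0.05 ± 0.08 (SE, 95% interval -0.22 to 0.12; limma adjusted p = 0.913). The groups overlapped, with m31 libraries at both ends. The fibre pore gene Kcnj11 had 3679.7 ± 387 and 3583 ± 708 (log2 difference 0.06), and Abcc8, which encodes the other sulphonylurea receptor, had 86.3 ± 12.2 and 121 ± 31.9 (-0.46, limma adjusted p = 0.733). Expressed per 100 normalised reads of Abcc9, Kcnj8 stood at 7.43 to 11.4 under m31 and at 6.92 to 9.16 under the control guide. Whether the differences of the neighbouring genes differ from each other was not tested.

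The promoters of this pair are shown because the genes lie side by side and code for parts of 1 channel. Each sequence is the RefSeq window on GRCm38.p6, 250 bases before to 50 bases after the annotated start, on the minus strand. Capitals mark the letters TGGGAA, the core of the site bound by RBPJ, the DNA-binding partner of Notch receptors, searched on both strands; neither match overlaps another motif searched. Of the 10 members 7 had a RefSeq window; Myh11, Tagln and Pdgfrb had none.
Kcnj8, chr6:142571565-142571864: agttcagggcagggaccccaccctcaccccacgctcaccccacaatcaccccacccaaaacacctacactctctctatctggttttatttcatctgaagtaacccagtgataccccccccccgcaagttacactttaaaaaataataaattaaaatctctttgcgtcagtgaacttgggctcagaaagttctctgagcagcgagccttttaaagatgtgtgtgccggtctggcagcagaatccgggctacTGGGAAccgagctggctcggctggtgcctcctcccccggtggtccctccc
Abcc9, chr6:142702225-142702524: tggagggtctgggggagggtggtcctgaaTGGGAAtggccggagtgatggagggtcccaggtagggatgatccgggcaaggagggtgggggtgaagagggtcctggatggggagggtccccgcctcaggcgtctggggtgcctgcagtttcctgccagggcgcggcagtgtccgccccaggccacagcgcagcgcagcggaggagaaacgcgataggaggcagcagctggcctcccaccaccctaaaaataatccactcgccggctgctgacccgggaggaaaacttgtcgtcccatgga
Each window held 1 match, at the start site itself in Kcnj8 and 221 bases before it in Abcc9. That core was present in 25.6% of all 32851 RefSeq windows, and in 2 of the 5 pericyte members with a window. The windows of Rgs5, Cspg4 and Notch3 did not hold these letters. In base composition the Abcc9 window had 65.7% G and C and the Kcnj8 window 53.3%, beside a median of 52.7% over all windows; Notch3 reached 70% with 25 CpG dinucleotides, and Rgs5 52.3% with 6.

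Cnn1 (ENSMUSG00000001349, chromosome 9, 22099216 to 22109630, plus strand), which encodes calponin, an actin-binding protein that restrains contraction of smooth muscle, had the largest estimate among the members. It stood at 57.9, 125, 61.9 and 99.4 normalised reads under m31 and at 37.7, 58.2, 51.7 and 32.0 under the control guide. Of the m31 libraries, replicates 2 and 4 were high and replicates 1 and 3 lay near the top of the controls, and m31 replicate 1 was just under control replicate 2. Means of 86.0 ± 31.9 and 44.9 ± 12.1 put m31 at 192% of the control mean, a log2 difference of 0.89 ± 0.28 (SE, 95% interval 0.27 to 1.51; limma adjusted p = 0.647, unadjusted p = 0.0092). The gene rested on 24 to 139 reads per library. Its difference was 0.69 without m31 replicate 2 and 0.79 without control replicates 3 and 4.

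Myh11 (ENSMUSG00000018830, chromosome 16, 14194535 to 14291372, minus strand), the smooth muscle myosin heavy chain, had 1726, 2724, 1977 and 2447 normalised reads under m31 and 1678, 2636, 1906 and 1744 under the control guide. The groups overlapped over most of their range, with replicate 2 the highest library of each group. The means were 2219 ± 450.3 and 1991 ± 440.3, a log2 difference of 0.16 ± 0.17 (SE, 95% interval -0.21 to 0.53; limma adjusted p = 0.887). It ran from 0.05 without m31 replicate 2 to 0.30 without control replicate 2, and was 0.05 without control replicates 3 and 4.

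Acta2 encodes the smooth muscle alpha actin, the usual marker of vessel walls (ENSMUSG00000035783, chromosome 19, 34241090 to 34255590, minus strand). It had 1544, 2723, 1791 and 2296 normalised reads under m31 and 1232, 2121, 2178 and 2387 under the control guide. Control replicate 1 was the lowest of the 8 and m31 replicate 2 the highest, and the groups overlapped. With means of 2089 ± 526 and 1979 ± 511, the log2 difference was 0.09 ± 0.22 (SE, 95% interval -0.40 to 0.57; limma adjusted p = 0.960). Leaving out control replicate 1 turned it to -0.13, and leaving out m31 replicate 2 to -0.05, while it was 0.34 without control replicates 3 and 4 and 0.36 with library weights. Fibres contain the near-identical skeletal actin Acta1, of which Acta2 equalled 0.125 to 0.322% in normalised reads; of the 2146 stretches of 50 bases in annotated Acta2 transcripts, 7 (0.326%) occurred exactly in a transcript of another gene.

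Relative to Myh11, Cnn1 was at 3.36, 4.58, 3.13 and 4.06 per 100 normalised reads of Myh11 under m31 and at 2.24, 2.21, 2.71 and 1.83 under the control guide. This ratio was chosen once its values had been seen. All 4 m31 libraries lay above the control libraries, whereas Acta2 per 100 normalised reads of Myh11 ran from 89.4 to 99.97 under m31 and from 73.4 to 137 under the control guide.

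Promoters of smooth muscle genes are shown for Acta2 and Cnn1, with the skeletal actin Acta1 beside them for contrast. Windows and build are as above; Cnn1 lies on the plus strand and the actin genes on the minus strand. Capitals mark matches to the CArG box, and to that box with exactly 1 of its 10 letters off, a reading that is the same on both strands.
Acta2, chr19:34255324-34255623: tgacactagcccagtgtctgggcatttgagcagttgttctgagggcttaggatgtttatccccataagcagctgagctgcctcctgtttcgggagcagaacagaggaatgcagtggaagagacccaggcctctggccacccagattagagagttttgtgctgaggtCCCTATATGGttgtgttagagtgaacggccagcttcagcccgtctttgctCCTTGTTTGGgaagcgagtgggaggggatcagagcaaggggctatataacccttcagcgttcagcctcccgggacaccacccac
Cnn1, chr9:22099003-22099302: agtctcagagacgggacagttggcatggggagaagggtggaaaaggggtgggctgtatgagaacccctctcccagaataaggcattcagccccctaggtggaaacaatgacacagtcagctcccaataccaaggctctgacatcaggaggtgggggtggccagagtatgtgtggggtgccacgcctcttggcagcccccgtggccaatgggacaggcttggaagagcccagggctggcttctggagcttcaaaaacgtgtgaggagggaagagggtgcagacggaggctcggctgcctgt
Acta1, chr8:123894726-123895025: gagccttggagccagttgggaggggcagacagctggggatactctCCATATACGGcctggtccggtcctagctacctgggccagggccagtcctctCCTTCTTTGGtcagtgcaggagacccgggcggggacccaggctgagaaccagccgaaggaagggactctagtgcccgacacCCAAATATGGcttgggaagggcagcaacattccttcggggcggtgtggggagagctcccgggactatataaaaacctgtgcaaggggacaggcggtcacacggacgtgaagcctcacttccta
Acta2 held 2 matches with 1 letter off, CCCTATATGG and CCTTGTTTGG, which start 84 and 34 bases before the annotated start. Acta1 held the full box CCAAATATGG 73 bases before its start and 2 matches with 1 letter off. Cnn1 held neither form in this window, and Kcnj8, printed above without capitals for it, held 1 match with 1 letter off 46 bases before its start. Acta2 also held TGGGAA 27 bases before its start, overlapping its second match. The full box was present in 1.63% of all windows and the form with 1 letter off in 19.9%. Among other contractile smooth muscle genes, 2 of the 23 with a window held the full box, Myl6 and Myl9.

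**Figure D3:**
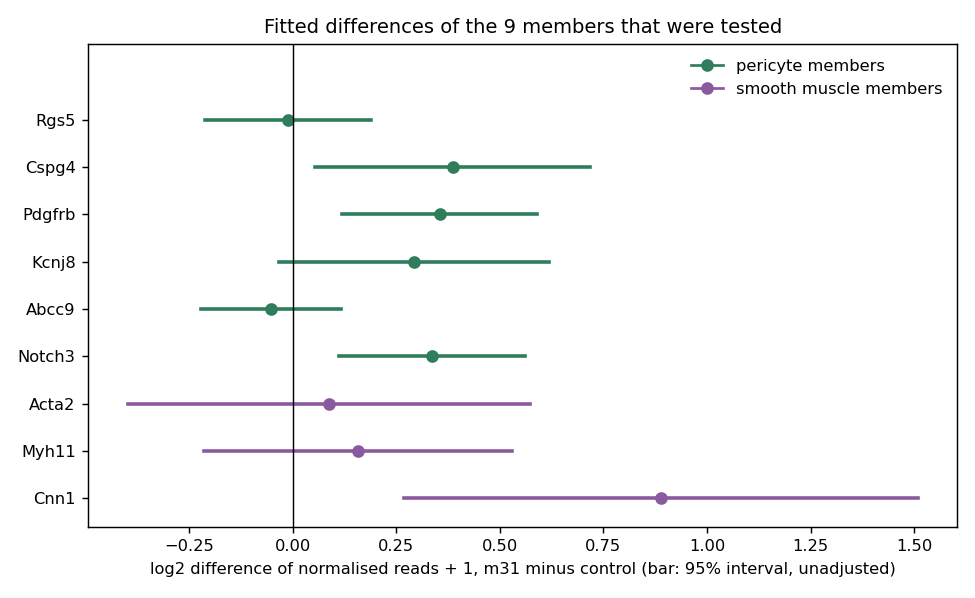
Log2 differences of normalised reads + 1, m31 minus control, for the 9 members tested (points) with unadjusted 95% intervals (bars), pericyte members in green and smooth muscle members in purple. Intervals lie above 0 for Cspg4, Pdgfrb, Notch3 and Cnn1 and span 0 for the other 5; none passed adjustment over all genes.

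Tagln (ENSMUSG00000032085, chromosome 9, 45929619 to 45936058, minus strand), which encodes transgelin, an actin-binding protein abundant in smooth muscle, had few reads. There were 6, 13, 7 and 8 reads in m31 replicates 1 to 4 and 15, 10, 7 and 8 in control replicates 1 to 4. In normalised reads these were 5.70, 11.7, 6.37 and 6.41 under m31 and 12.6, 9.54, 7.87 and 10.7 under the control guide. M31 replicates 1, 3 and 4 lay below every control library, and m31 replicate 2 lay within the controls. The means were 7.54 ± 2.78 and 10.2 ± 1.97, a difference of -0.42 on the log2(value + 1) scale, with p = 0.171 in an exact two-sided permutation test. Its level per kb was far below that of its companion genes Acta2 and Myh11. In the annotation 62.4% of its exon bases are shared with exons of Gm48529 and 5.43% with exons of Pcsk7, both on the opposite strand. Gm48529 had 2.67 to 11.2 normalised reads and Pcsk7 401 to 492. Whether the counting step set reads of such shared stretches aside was not tested, as its strand setting is not given in the sources used here; the level of Tagln is uncertain for that reason. For Cnn1, Acta2, Myh11, Rgs5, Cspg4, Pdgfrb and Kcnj8 no exon base is shared with another annotated gene.

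Across libraries the members did not move as a single block. M31 replicate 2 was the highest library for Cspg4, Kcnj8, Notch3, Acta2, Myh11 and Cnn1, which is 6 of the 10 genes from both classes. M31 replicate 1, in contrast, was the lowest for Rgs5 and Tagln and the second lowest for Acta2 and Myh11, while its Kcnj8 was high. Expressed as log2 deviation from each gene's mean over the 8 libraries, the median of the 6 pericyte members was 0.06, 0.24, 0.17 and 0.03 in m31 replicates 1 to 4 and 0.04, 0.05, -0.23 and -0.29 in control replicates 1 to 4. The lowest 2 values belonged to the shallow control libraries, and control replicates 1 and 2 lay within the range of the m31 libraries. For the 3 smooth muscle genes Acta2, Myh11 and Cnn1 the medians were -0.26, 0.46, -0.06 and 0.24 under m31 and -0.65, 0.10, -0.12 and -0.25 under the control guide, a wider spread in which control replicate 1 was lowest. The low pericyte medians of control replicates 3 and 4 did not extend to every pericyte member. In these libraries Rgs5 deviated by -0.02 and -0.05 and Abcc9 by -0.07 and 0.03, while Cspg4, Pdgfrb, Kcnj8 and Notch3 were lower. The part of depth in the group difference was not tested.

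**Figure D4:**
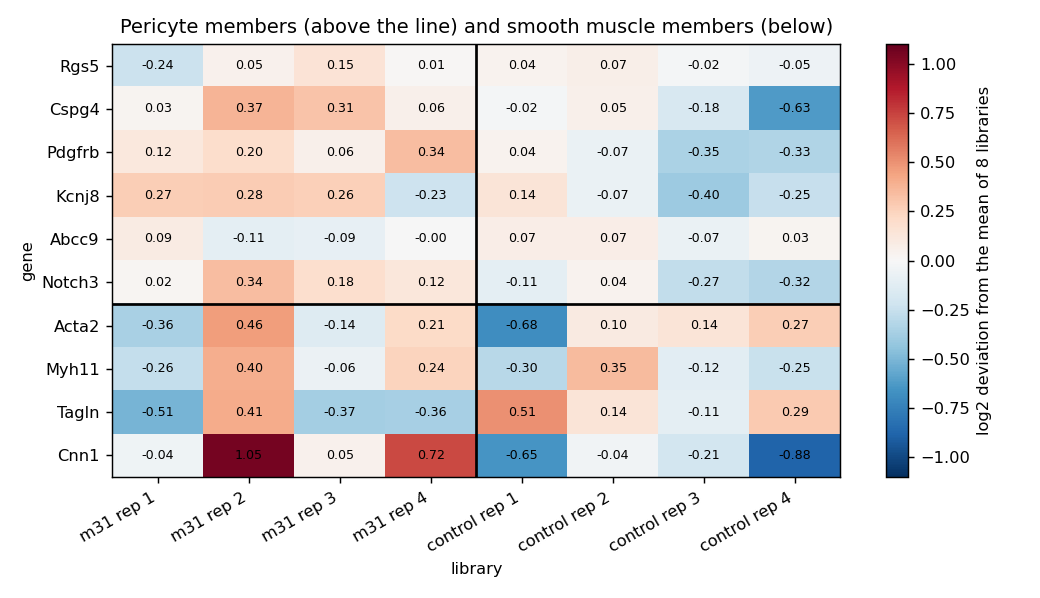
Log2 deviation of each member in each library from its own mean over the 8 libraries (red above, blue below the mean; pericyte members above the horizontal line, m31 libraries left of the vertical line). M31 replicate 2 is red for 9 of the 10 genes, and Cnn1 reaches 1.05 there and -0.88 in control replicate 4.

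The coefficient of variation (SD as a percentage of the mean) was 6.51 to 15.9% under m31 and 3.81 to 19.5% under the control guide among pericyte members. Among Acta2, Myh11 and Cnn1 it was 20.3 to 37.1% and 22.1 to 27.0%, and for Tagln 36.9% and 19.4%; whether the classes differ in spread was not tested. The standard errors of the log2 differences were 0.08 to 0.15 for pericyte members and 0.17 to 0.28 for the 3 smooth muscle genes.

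Other pericyte genes, from a list of 25 of which 24 were tested, had 20 estimates above 0 and 4 below, with a median log2 difference of 0.18. None passed limma, and 4 higher and 1 lower had an unadjusted p under 0.05 by limma. Over all genes tested that share was 6.79% (3.76% higher, 3.03% lower). In 2 of the 24 all m31 libraries lay above all control libraries, beside 1.84% of all genes tested. Plxdc1, a plexin domain receptor gene, had 294, 225, 241 and 199 normalised reads under m31 and 159.9, 142, 161 and 145 under the control guide. Plxdc1 was among the genes of this list without overlap. The log2 difference was 0.64 ± 0.13 (SE, limma adjusted p = 0.547); DESeq2 called this gene (adjusted p = 0.0309) and edgeR did not (adjusted p = 0.554). Ebf1, a transcription factor gene of mural and stromal cells, stood at 519.6 ± 45.1 and 425 ± 56.9 (0.30), and Cd248, the endosialin gene shared by pericytes and fibroblasts, at 851 ± 243 and 579 ± 170.4 (0.56), highest in m31 replicate 4 at 1179. Angpt1, the ligand by which mural cells steady the endothelium, was at 163 ± 19.996 and 203 ± 22.7 (log2 difference -0.31, limma adjusted p = 0.720).

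Contractile genes beyond the 4 members did not lean to either side. Of 25, all tested, 11 had estimates above 0 and 14 below, with a median of -0.01, and none had an unadjusted p under 0.05 by limma. Ppp1r14a, an inhibitor of myosin phosphatase, had 102 ± 19.3 and 79.3 ± 10.5 normalised reads (0.34), and Cacna1c, the pore of the L-type calcium channel of smooth and cardiac muscle, 198 ± 27.7 and 177 ± 17.0 (0.16). Muscle fibres also express several of this list; Tpm1, a tropomyosin of striated and smooth muscle, ranged from 367759 to 433010 normalised reads under m31 and from 366174 to 587864 under the control guide (-0.28). Among the close relatives of Cnn1 and Tagln, Cnn2 and Cnn3 had log2 differences of 0.02 and -0.01, Tagln2 -0.13 and Tagln3 -0.43.

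Among the actins, none passed: Acta1 had a log2 difference of -0.04, Actc1, the cardiac form, -0.35, Actg2, the enteric smooth muscle form, 0.56, and the ubiquitous Actb and Actg1 0.02 and -0.07. Actg2 rested on few reads, with 7.53 to 64.7 normalised reads per library, and it was highest in m31 replicate 2, the library in which Cnn1, Acta2 and Myh11 were also highest.

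Of the transcription factors that govern smooth muscle genes, 9 of 10 were tested, with 3 estimates above 0 and 6 below and a median of -0.11. Mrtfa, a cofactor of serum response factor, had 1993, 1869.8, 1196 and 1343 normalised reads under m31 and 1195, 1415, 844 and 726 under the control guide, and the groups overlapped (log2 difference 0.63 ± 0.22 (SE), limma adjusted p = 0.698). Its relative Mrtfb was at 1045.5 ± 194 and 1226 ± 109 (-0.24). Mef2c, a muscle transcription factor also rich in fibres, had 13663 ± 711 and 15831 ± 673, with the m31 libraries below all the control libraries (log2 difference -0.21, limma adjusted p = 0.698), and Prdm16 133 ± 21.6 and 176 ± 16.1 (-0.41). Myocd, the myocardin gene, was below the minimum, at 1.67 to 13.5 normalised reads.

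Genes of the signalling routes that reach pericytes were read next, and none passed over all genes. Pdgfb, the endothelial ligand of the Pdgfrb receptor, had 1023 ± 154 and 909 ± 146 normalised reads (log2 difference 0.17), Pdgfa 902 ± 75.9 and 861 ± 70.3 (0.07), Pdgfc 51.7 ± 14.9 and 48.6 ± 12.2 (0.08), and the alpha receptor Pdgfra 1005 ± 291 and 789 ± 266 (0.36). None of these or Pdgfd had an unadjusted p under 0.05. Of 13 Notch genes other than Notch3, 7 had estimates above 0 and 6 below, with a median of 0.02. Heyl, a Notch target of mural cells, was at 490.0, 448, 429.6 and 308 under m31 and at 403, 342, 251 and 241 under the control guide (log2 difference 0.45 ± 0.19 (SE), limma adjusted p = 0.720), with m31 replicate 4 among the controls. For Dll1, a Notch ligand, the m31 libraries all lay below the control libraries, at 111 ± 10.6 and 144 ± 15.0 (-0.36, limma adjusted p = 0.698).

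**Figure D5:**
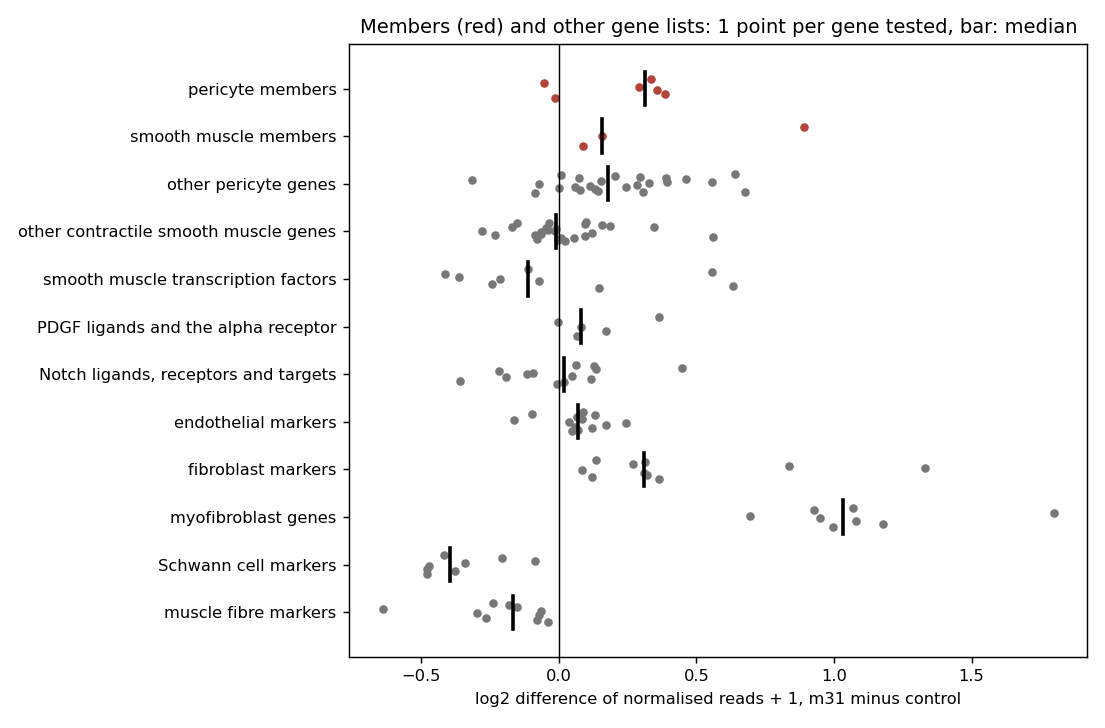
Log2 differences (m31 minus control) of each gene tested, by list, with a bar at each list's median; members are in red. The pericyte members have a median of 0.31 and the smooth muscle members of 0.16, beside 0.18 for other pericyte genes, -0.01 for other contractile genes and 0.07 for endothelial markers.

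Markers of other cells were read in the same libraries. The 13 endothelial markers, whose cells the pericytes cover, had 11 estimates above 0 and 2 below with a median of 0.07, none at an unadjusted p under 0.05, and their summed level was 16331 to 18538 normalised reads under m31 and 15517 to 17977 under the control guide. Per 100 normalised reads of Pecam1, Pdgfrb stood at 71.7 to 91.2 under m31 and at 55.6 to 72.9 under the control guide, whereas Rgs5 stood at 348 to 448 and at 408.5 to 439.8. Fibroblast markers had 10 of 10 estimates above 0 with a median of 0.31 and summed levels of 35131 to 132980 under m31 and 27305 to 49313 under the control guide. Genes of myofibroblasts, activated stromal cells that can express Acta2 and Cnn1, had 8 of 8 above 0 with a median of 1.03. M31 replicate 4 stood apart in both lists: without it, a setting chosen after seeing the data, 7 of 10 fibroblast estimates were above 0 with a median of 0.15, and 7 of 8 myofibroblast estimates with a median of 0.48. Control replicate 3 was the highest control in both lists. In a further such setting, with that library left out as well, 10 of 10 fibroblast estimates (median 0.23) and 8 of 8 myofibroblast estimates (median 0.76) were above 0. The summed myofibroblast level was 30499 in m31 replicate 4 and 5149 to 7131 in the other m31 libraries, and it was 8642 in control replicate 3 and 3458 to 4090.3 in the other controls. Lox, which cross-links collagen, was at 729 ± 389 and 336 ± 157 (log2 difference 1.08, limma adjusted p = 0.647), with m31 replicate 4 the highest at 1292. Tendon markers had 8 of 8 estimates above 0 (median 0.74) and macrophage markers 9 of 9 (median 0.52), with medians of 0.53 and 0.31 without m31 replicate 4. These medians were 0.67 and 0.61 without m31 replicate 4 and control replicate 3. Schwann cell markers had 8 of 8 estimates below 0 (median -0.40) and muscle fibre markers 10 of 10 (median -0.17). No marker of these lists was at 0 in all libraries, none passed over all genes, and their part in the member differences was not tested.

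By likeness of pattern, the genes with the highest Pearson r to Myh11 over the 8 libraries, on log2 values and among 15960 genes, were Glb1l2 (0.97), Ptger3 (0.96), Mfsd4a (0.95), Smarcad1 (0.94) and Trmt44 (0.93). Cnn1 ranked 78th (r = 0.80), Notch3 388th (0.67) and Acta2 431st (0.66). For Rgs5 the nearest were Gm8983 (0.95), Robo2 (0.95), Gm23119 (0.94), Helt (0.94) and Sox13 (0.93), all but Sox13 at means under 32 normalised reads, and the nearest member was Myh11 at rank 1596 (0.45). The 8 points share depth and size factors, so that these values describe the libraries and carry no test.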

How the data were processed

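Total RNA of 8 gastrocnemius samples (4 with guide m31, 4 with a control guide, by sample title) was prepared with an RNeasy kit and sequenced from NEBNext Ultra libraries, per the labels' protocols. The deposited table holds read signal that the authors normalised, read counts per gene divided by 1 size factor for each library. STAR and DESeq2 are listed, with no version, in the submitters' processing notes, which also list the human build GRCh38.p12 although the identifiers are mouse. The sources used here do not give the counting program, its strand setting or the annotation. Of 11 value columns, 8 matched a library and 3 were not used. The table has 23013 entries, 5 of them construct entries (0.023 to 0.142% of reads), which were left out. All values (100%) were whole multiples of 1 read within 0.01.

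Symbols came from GENCODE M21; 22963 genes had a unique one. For genes with a mean of at least 10, log2(value + 1) was fitted in limma 3.58.1 under R 4.3.3 (intensity trend, group as the only term), with Benjamini-Hochberg adjustment over all 15960 genes; SE and 95% intervals come from that fit. The values are normalised, so count tools were not the main test; edgeR 4.0.16 and DESeq2 1.42.0 on recovered reads were alternatives. Exon lengths and overlaps come from GENCODE M21 (GRCm38), whose build the authors' files do not name. The fit was run on simulated counts with the same dispersion for every gene and no outlying library. That setting is simpler than these data, so it does not show how the fit performs on them. Replicates within groups differed beyond sampling noise (chi-square per degree of freedom 14.3 to 57.9). Named genes were the 10 members, up to 4 genes per other list with the smallest unadjusted p, all relatives of the actins, calponins and channel subunits, and the 5 genes most like Rgs5 and Myh11. The members and lists were chosen with earlier results of these data known.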

Additional observations from a re-analysis of the deposited data

Results flagged for a closer look

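Within groups of 4 libraries, 2 values of the 10 genes lay far from the other 3 of their group, by Dixon's criterion at the 95% level; 20 groups were checked, and chance flags about 1 in 20. Kcnj8 in m31 replicate 4 had 512 normalised reads, against 720.0 to 729.6 in the other m31 libraries. Tagln in m31 replicate 2 had 11.7, against 5.70 to 6.41, a gap that rests on 13 reads against 6 to 8.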

How the results depend on the processing

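No member passed the threshold under any of the 20 alternatives, and the signs of Cspg4, Pdgfrb, Kcnj8, Abcc9, Notch3, Myh11 and Cnn1 held in all of them. Rgs5 turned to 0.034 under quantile normalisation, 0.064 without m31 replicate 1 and 0.0077 without control replicate 2 (-0.064 to 0.064 with 1 library left out), and Acta2 to -0.05 without m31 replicate 2 and -0.13 without control replicate 1 (-0.13 to 0.22 with 1 library left out); the cause was not tested. With 1 library left out in turn the pericyte median ran from 0.25 to 0.37, the smooth muscle median from 0.05 to 0.30 and the count of genes called from 1 to 2 (2 without m31 replicate 1 and without control replicate 4). Without both shallow control libraries the pericyte median was 0.14, the smooth muscle median 0.34, Acta2 0.34 and Myh11 0.05, and 4 genes were called; library weights put the smooth muscle median and Acta2 at 0.36. Without m31 replicate 4 and control replicate 3, 3 were called, and DESeq2 called 31. With the replicate block, limma called 1 gene and the smallest adjusted p of a member was 0.883. The block lowered the SE of Acta2 from 0.22 to 0.12 and of Myh11 from 0.17 to 0.10. It also lowered those of Cspg4, Kcnj8, Notch3 and Cnn1, and raised those of Rgs5, Pdgfrb and Abcc9. Same-numbered libraries had deviations that correlated at 0.05, -0.05, -0.13 and -0.18. The labels do not say whether the numbers pair the samples, and these correlations cannot settle it. Depth limits Tagln and Cnn1, which rested on 6 to 15 and 24 to 139 reads.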

Other observations

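Receptors through which nerves and hormones act on vessel walls were split: of 13 vasoactive receptor and RGS genes tested, 7 had estimates above 0 and 6 below, with a median log2 difference of 0.12. Ptger4, a prostaglandin receptor gene, was at 92.2 ± 26.3 normalised reads under m31 and 58.1 ± 18.6 under the control guide (0.66, limma adjusted p = 0.705). In the list of angiopoietin, sphingosine and TGF-beta signalling genes, 10 of 14 estimates were above 0 with a median of 0.05; S1pr2, a sphingosine receptor gene, had 126 ± 27.0 and 92.4 ± 29.98 (0.46) and Tgfb1 293 ± 76.8 and 227 ± 48.3 (0.35), and none had an unadjusted p under 0.05. Satellite cell markers had a median of 0.06 and genes of regenerating fibres one of 0.04, the latter with 4 of 7 estimates above 0. The regenerating fibre median was -0.20 without m31 replicate 4 (1 of 7 above 0) and 0.22 without control replicate 3 (6 of 7 above 0). Both settings were chosen after seeing the data.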
